A study of Homo sapiens with 6 samples.

Results

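The genes described here encode the subunits and regulators of protein phosphatase 2A (PP2A) and of its close relatives PP4 and PP6. They were taken by symbol, in an older or current form, from a table of read counts for 26485 human genes, and 37 of 37 were found. Of these, 36 had enough counts to be tested among 13562 tested genes. PPP2R2B, a B55 subunit gene, had at most 2 counts in any library and was not tested. The libraries were made from poly(A) RNA of HCC38, an established breast ductal carcinoma line, triple negative and basal-like by its labels. All 6 libraries came from this line, with Oligofectamine as the transfection reagent. The 3 controls were a mock, the non-targeting siRNA SCR#2 and the non-targeting siRNA SCR#3. Against them stood 1 library for each of 3 different siRNAs to CIP2A, named siCIP2A#1, siCIP2A#2 and siCIP2A#3. The mock is labelled as receiving reagent alone, although the design text calls it untransfected. No label says that libraries of a group came from separate cultures, and each agent has 1 library. Each p-value measures the spread between these libraries, in which differences between agents and technical ones cannot be told apart.

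PP2A removes phosphate from serine and threonine in a large share of the cell's phosphoproteins. Its core is a catalytic subunit on a scaffold subunit, and a regulatory subunit of the B55, B56, PR72 or striatin family completes the trimer and selects the substrates. Catalytic subunits are loaded through chaperones and a reversible methyl group, and small proteins such as SET, ENSA and ARPP19 inhibit particular forms. CIP2A is an oncoprotein that binds PP2A and restrains it, and PP2A inhibition of this kind is known in breast cancer.

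CIP2A checks the labels. It stood at 98.9, 99.8 and 103 CPM (counts scaled to TMM-adjusted library totals) in the mock, SCR#2 and SCR#3, against 16.3, 45.8 and 19.3 CPM with siCIP2A#1, siCIP2A#2 and siCIP2A#3. No siRNA library overlapped a control. The two-sided exact permutation p was 0.10, which 3 against 3 cannot go below. Over the 3 siRNAs together CIP2A was not called (log2 difference -1.90, SE 0.30, edgeR adjusted p = 0.708, with 1.2e-05 to 1.0 over the alternatives). It was called without siCIP2A#2 (-2.50, edgeR adjusted p = 1.2e-05) and with a replicate block (-2.03, edgeR adjusted p = 0.0345). Library totals ran from 13995187 to 18161451 counts, so that 3 counts, taken as the floor, came to 0.165 to 0.214 CPM, for counting error only. By chi-square per degree of freedom, SCR#2 and SCR#3 differed from each other by 3.21 and from the mock by 11.3 and 8.94, and the siRNA libraries among themselves by 15.6 to 18.0. Of 5 epithelial markers, KRT8 and KRT18 stood at 252 to 708 CPM while EPCAM, CDH1 and KRT19 did not exceed 1.22 CPM. Of 5 basal markers only EGFR was present (73.0 to 84.4 CPM); KRT5, KRT6A, KRT14 and KRT17 did not exceed 0.0679 CPM, so the basal keratins do not mark these cells. Of 5 luminal and hormone receptor markers 3 reached 1 CPM in a library, ERBB2 (48.4 to 74.4 CPM), FOXA1 (1.16 to 1.60 CPM) and GATA3 (up to 1.10 CPM), while ESR1 and PGR did not exceed 0.351 CPM. Of 5 leukocyte markers ITGAM reached 1 CPM (1.87 to 3.79 CPM) and PTPRC had no count in any library. Of 5 endothelial markers PECAM1 (3.00 to 6.22 CPM), KDR (3.54 to 6.28 CPM) and VWF (up to 1.08 CPM) reached it and CDH5 had no count. None of 3 fat cell markers reached it, and ADIPOQ had no count.

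The PP2A-type genes took up 0.416% to 0.437% of all counts in the 6 libraries, and the siRNA and control ranges overlapped. In RNA from a culture, fewer cells that make a transcript and less transcript per cell cannot be told apart. For the 36 tested members the highest library held a median of 1.2 times the level of the lowest, against 1.34 times for all tested genes. No background matched for count level was set. Whether the smaller ratio goes with the members' count level or is particular to these genes was therefore not tested. Levels of different genes are set against each other only per length, as CPM per kilobase of the principal GENCODE 29 transcript. SET was the most abundant member at 185 ± 5.85 CPM per kilobase (SD, n = 3 controls), followed by PPP2R4 at 99.3 ± 8.99, ANP32A at 87.4 ± 3.63 and PPP4C at 83.4 ± 7.05. At the other end stood PPP2R2C at 3.86 ± 0.15 and PPP2R3B at 4.19 ± 0.78. ANP32A and PPP4C overlapped over the controls, as did PPP2R2C and PPP2R3B, while PPP2R4 lay above both of the former in each control. These orders depend on the length used: with the union of all exons of a gene, a choice made after seeing the data, 29 members changed rank, but SET stayed first (124 ± 3.92) and PPP2R2C and PPP2R3B stayed lowest of the tested.

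**Figure D1:**
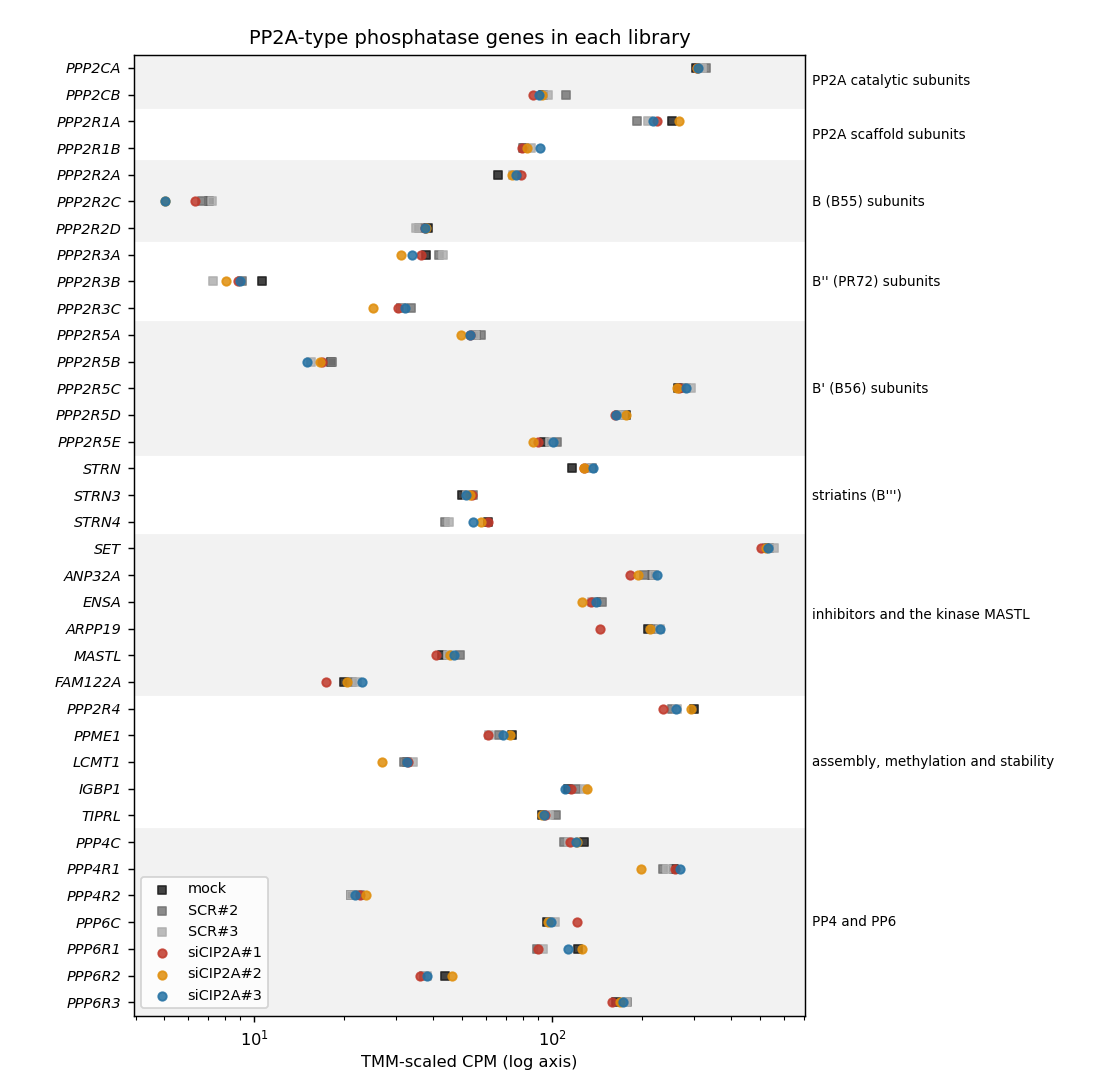
Level of each of the 36 tested genes (rows, grouped by role) in each of the 6 libraries, as TMM-scaled CPM on a log axis; squares are controls and circles CIP2A siRNAs. The symbols of most genes lie close together, and the siCIP2A#1 point of ARPP19 (145 CPM) stands apart from the other 5 libraries (209 to 231 CPM).

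**Figure D2:**
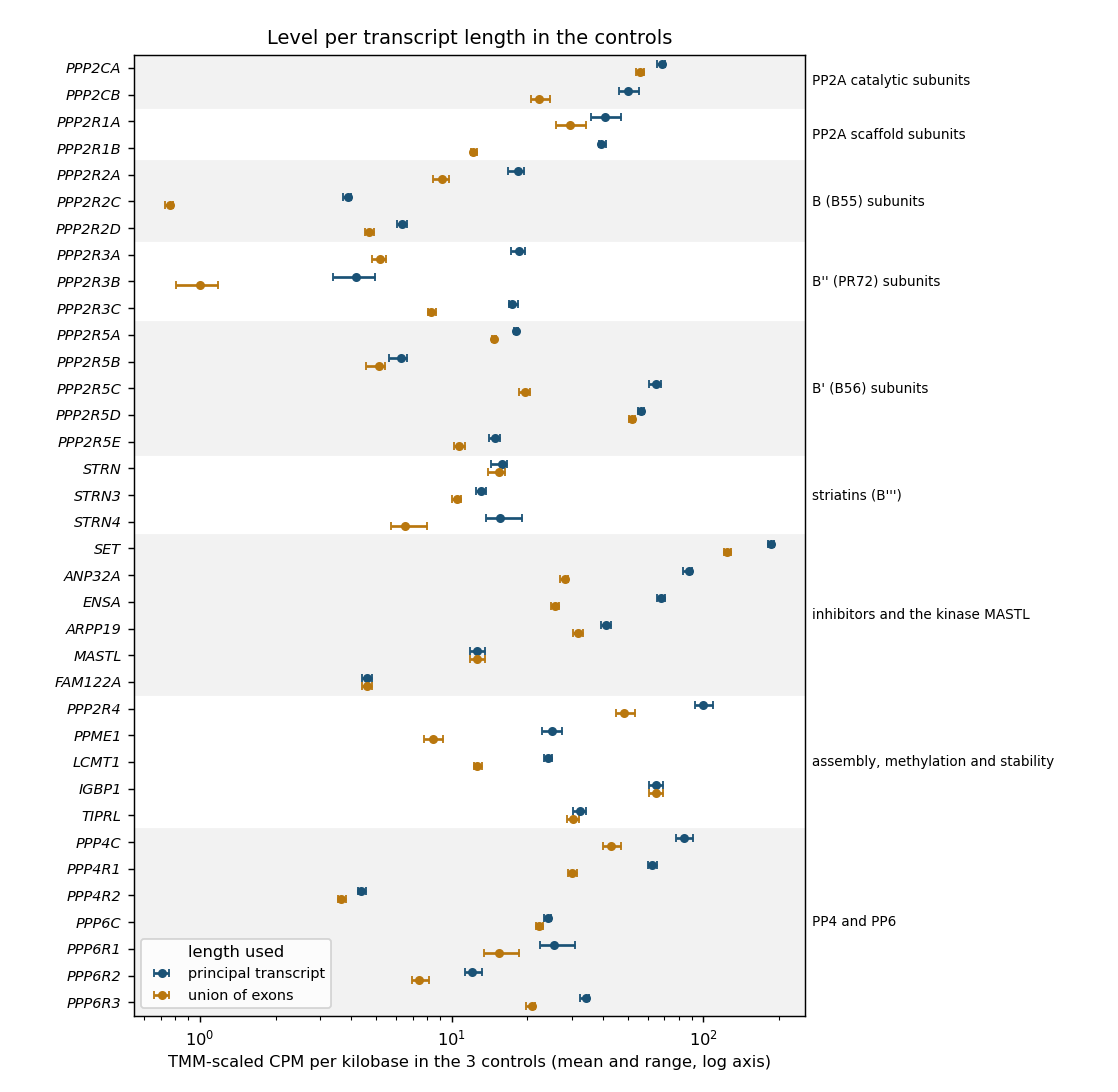
Level per kilobase in the 3 controls (point, mean; bar, lowest to highest library; log axis), with the principal transcript (blue) or the union of exons (brown) as the length. SET is highest with both lengths, and PPP2R2C, PPP2R3B and PPP2R3A move furthest between them.

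The main comparison asked whether these transcripts differed between the 3 CIP2A siRNAs and the 3 controls. None of the 36 was called by edgeR's quasi-likelihood test (adjusted p under 0.05), where 0% of all tested genes were called, or by DESeq2, which called 0.0221% of all tested genes. At an unadjusted p under 0.05 stood 1 member, PPP2R3A, against 2.72% of all tested genes. Log2 differences ran from -0.35 (PPP2R2C) to 0.21 (STRN4), 13 above 0 and 23 below, with a median of -0.047 against -0.0011 for all tested genes. The adjusted p was 0.999 for every member. The 95% interval of the difference lay inside 2-fold either way for 36 of 36 and inside 1.5-fold for 35 of 36, PPP2R2C being the exception. The median interval reached 0.22 to either side on the log2 scale. These intervals are for the mean of 3 different siRNAs. With siCIP2A#1, siCIP2A#2 and siCIP2A#3 singly, 36 of 36 each lay inside 2-fold, and 33, 28 and 35 inside 1.5-fold. Below every control in every siRNA library stood 4 members, PPP2CB, PPP2R2C, PPP2R3A and PPP2R5A (11.1% of the 36, against 4.38% of all tested genes), and above every control stood none (against 3.26%). Without the mock, 0% of genes and 0 members were called in the group comparison.

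**Figure D3:**
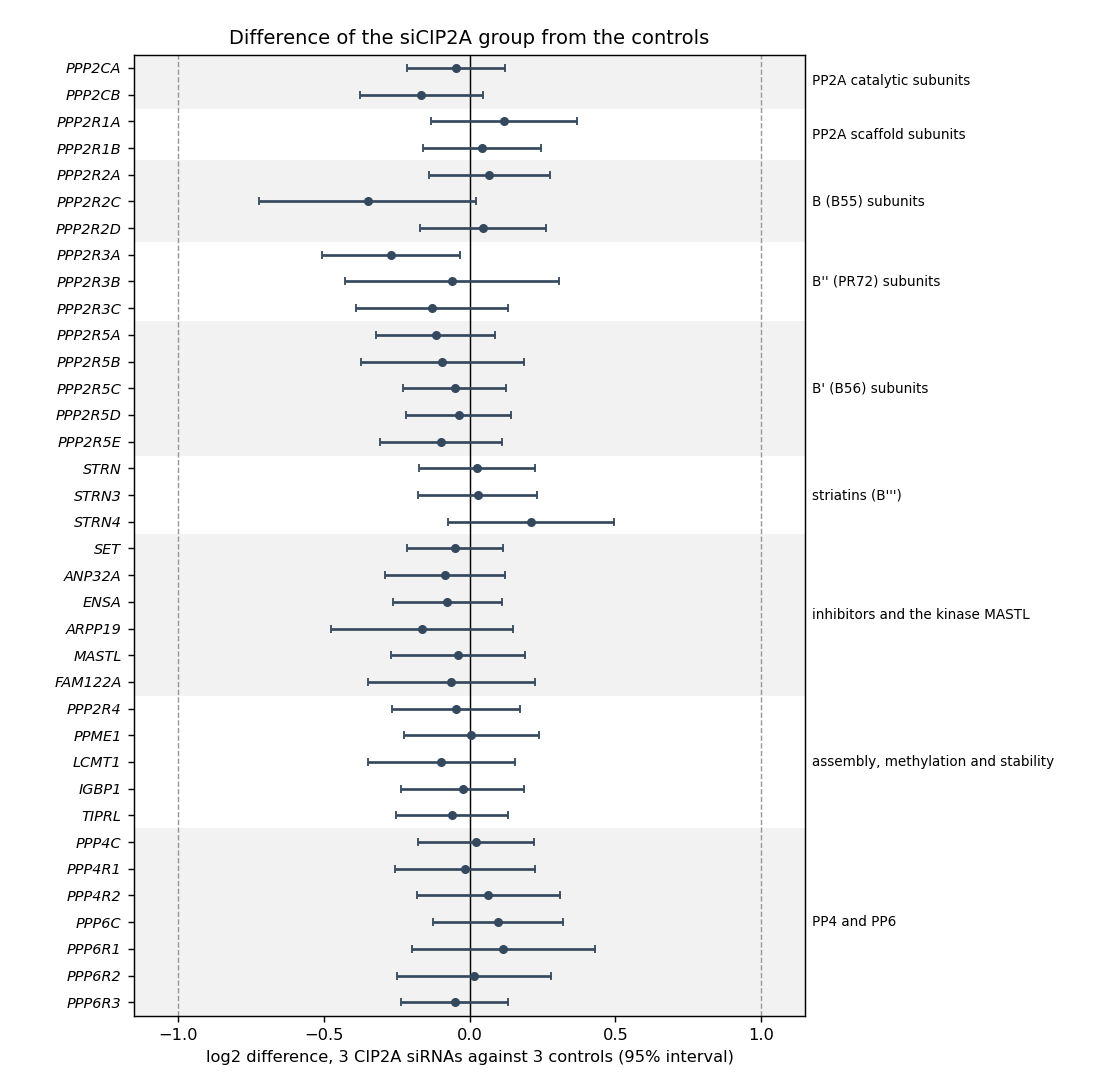
Log2 difference of the 3 CIP2A siRNA libraries from the 3 controls for each tested gene, by role, with its 95% interval; dashed lines mark 2-fold. All 36 intervals lie inside the dashed lines, and PPP2R3A (-0.27) is the gene whose interval leaves out 0.

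The catalytic subunits share nearly all of their protein sequence and are made from PPP2CA on chromosome 5 (134194332 to 134226073, GRCh38) and PPP2CB on chromosome 8 (30785616 to 30812818). PPP2CA stood at 305, 328 and 319 CPM in the mock, SCR#2 and SCR#3, and at 306, 307 and 309.5 CPM with siCIP2A#1, siCIP2A#2 and siCIP2A#3. The siRNA values lay between those of the mock and SCR#3, and the log2 difference was -0.047 (SE 0.077). PPP2CB stood at 93.0, 111 and 96.6 CPM in the same controls and at 86.0, 92.2 and 90.3 CPM with the siRNAs. All 3 siRNA values lay below the lowest control, the mock, siCIP2A#2 closest to it, and the log2 difference of -0.17 (SE 0.097, edgeR unadjusted p = 0.111) was not called. It was -0.085 without SCR#2, the highest control, and -0.22 without the mock. The log2 ratio of PPP2CA to PPP2CB counts was 1.67 ± 0.09 in the controls and 1.78 ± 0.05 with the siRNAs (SD, n = 3 each), 1 of 2 ratios tested. The groups did not overlap, though SCR#3 (1.72) and siCIP2A#2 (1.73) were close, and the exact two-sided permutation p was 0.10, the smallest possible. No background over other gene pairs was set, and the ratio reuses the PPP2CB values above. The difference of the mean log2 ratios was 0.12, with 0.063 without SCR#2 and up to 0.14 without another library. PPP2CA shares 8.26% of its 75-base windows with other genes, mainly AC104109.3, and PPP2CB 1.4%, none of them with each other.

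The scaffold is a chain of HEAT repeats that holds the other subunits, encoded by PPP2R1A or PPP2R1B. Per length, the ratio of PPP2R1A to PPP2R1B in the controls was 1.03 by the principal transcript and 2.4 by the union of exons. PPP2R1A stood at 253, 193 and 210.0 CPM in the mock, SCR#2 and SCR#3, and at 225, 268 and 219 CPM with the 3 siRNAs in order. The mock and siCIP2A#2 were the 2 high libraries, and the groups overlapped (log2 difference 0.12, SE 0.11). PPP2R1B stood at 80.4, 80.0 and 85.1 CPM in the controls and at 79.6, 82.4 and 90.8 CPM with the siRNAs. It was highest with siCIP2A#3, with a log2 difference of 0.042 (SE 0.092) and overlapping groups. The log2 ratio of the pair's counts, not set per length, was 1.41 ± 0.21 in the controls and 1.49 ± 0.22 with the siRNAs (SD, n = 3 each, exact permutation p = 0.70). Its difference of 0.080 became -0.025 without siCIP2A#2 and 0.20 without the mock.

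B55 subunits direct PP2A to mitotic and cytoskeletal substrates, and PPP2R2A encodes the widely expressed form. PPP2R2A stood at 66.1, 76.5 and 74.1 CPM in the mock, SCR#2 and SCR#3, and at 78.6, 73.1 and 75.5 CPM with the siRNAs. The mock was the lowest library and the groups overlapped (log2 difference 0.068, SE 0.095). PPP2R2C, a form known best from brain, stood at 7.06, 6.67 and 7.19 CPM in the controls and at 6.33, 5.04 and 5.01 CPM with the siRNAs. Its groups did not overlap, with siCIP2A#2 and siCIP2A#3 lowest, and its log2 difference of -0.35 (SE 0.17, 95% interval -0.72 to 0.024, edgeR unadjusted p = 0.0639) lay furthest from 0 and was not called. PPP2R2D kept to 35.0 to 38.3 CPM in all 6 libraries.

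PR72-type subunits bind calcium through EF hands, and 3 of 3 lay below 0. PPP2R3A, which lies on chromosome 3 (135965728 to 136147894), stood at 37.7, 41.7 and 43.0 CPM in the mock, SCR#2 and SCR#3. With siCIP2A#1, siCIP2A#2 and siCIP2A#3 it stood at 36.4, 31.2 and 34.0 CPM. Every siRNA library was below every control, siCIP2A#2 most, and the siCIP2A#1 value came close to the mock. The log2 difference was -0.27 (SE 0.11, 95% interval -0.51 to -0.034), at an unadjusted p of 0.0285 and an adjusted p of 0.999 by edgeR. PPP2R3C stood at 31.0, 33.6 and 31.0 CPM in the controls and at 30.3, 25.1 and 32.0 CPM with the siRNAs. Only siCIP2A#2 lay clearly below the other libraries, and the log2 difference was -0.13 (SE 0.12). PPP2R3B, at 7.26 to 10.6 CPM, gave -0.061.

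B56 subunits direct PP2A to kinetochores and to signalling proteins, and CIP2A is known to bind this family. All 5 lay below 0 in the group comparison, with a median log2 difference of -0.094 and none called. By single siRNA, 0, 1 and 2 of the 5 lay above 0 with siCIP2A#1, siCIP2A#2 and siCIP2A#3. PPP2R5A, on chromosome 1 (212285410 to 212361853), stood at 55.8, 57.5 and 55.2 CPM in the mock, SCR#2 and SCR#3, and at 52.9, 49.3 and 53.1 CPM with the siRNAs. Its groups did not overlap, yet the log2 difference was only -0.12 (SE 0.093, edgeR unadjusted p = 0.236). PPP2R5E stood at 93.7, 104 and 98.5 CPM in the controls and at 89.6, 86.2 and 101 CPM with the siRNAs, where siCIP2A#3 lay among the controls (log2 difference -0.098, SE 0.095). The remaining 3 ran from 15.1 to 18.3 CPM (PPP2R5B), from 263 to 294 CPM (PPP2R5C) and from 163 to 178 CPM (PPP2R5D). PPP2R5D has 36% of its exon bases opposite exons of MEA1, and since no strand setting of the counting is given, reads of the 2 genes may be mixed.

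Striatins scaffold STRIPAK, an assembly that holds PP2A together with kinases of the germinal centre class. STRN4, on chromosome 19 (46719511 to 46746450), stood at 61.0, 43.8 and 45.1 CPM in the mock, SCR#2 and SCR#3. With the siRNAs it stood at 61.2, 57.9 and 54.1 CPM. All 3 siRNA libraries were above both non-targeting libraries, but the mock was as high as siCIP2A#1, and the log2 difference of 0.21 (SE 0.13) was not called. It was 0.38 without the mock (edgeR adjusted p = 0.875, with 0.722 to 1.0 over the alternatives). STRN, at 117 to 137 CPM, gave 0.024, and STRN3, at 49.7 to 54.1 CPM, gave 0.028. Levels per length of the regulatory subunits were also put together as shares within each library, which rise and fall against each other by construction. Striatins took 15.8% to 17.0% of the regulatory transcripts in the controls and 17.4% to 18.1% with the siRNAs. PR72 subunits took 14.4% to 15.1% and 12.1% to 13.9%, B55 subunits 10.1% to 10.7% and 10.6% to 11.2%, and B56 subunits 58.3% to 59.2% and 56.8% to 59.0%. Striatin and PR72 shares did not overlap between the groups, by the principal transcript or by the union of exons (19.7% to 20.0% against 21.1% to 21.5% for striatins, 8.65% to 9.12% against 7.16% to 8.46% for PR72). B55 shares overlapped by the principal transcript but not by the union of exons (8.71% to 9.14% against 9.25% to 9.72%). The separation of these shares was not tested, and no background was set for it. The shares reuse the gene values above and are not further evidence of a shift. Among the striatins, STRN4 lay furthest from 0 in the group comparison (0.21, against 0.024 and 0.028). Among the PR72 genes it was PPP2R3A (-0.27, against -0.13 for PPP2R3C and -0.061 for PPP2R3B).

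Among the inhibitors, ENSA and ARPP19 are small paralogous proteins that block PP2A with B55 in mitosis once the kinase MASTL has phosphorylated a serine in a segment they share. That segment is shown because ARPP19 is the gene the results below turn on, and its nearest relative has to be told apart from it in the counts. Each line is a coding stretch of 72 bases from a GENCODE 29 transcript (GRCh38), printed 5′ to 3′ on the sense strand. Capitals mark the 15 bases at which they differ, and bases 28 to 45 code for the residues around the serine. ENSA lies on chromosome 1 (150621246 to 150629612, minus strand) and ARPP19 on chromosome 15 (52547045 to 52569446, minus strand).
ENSA: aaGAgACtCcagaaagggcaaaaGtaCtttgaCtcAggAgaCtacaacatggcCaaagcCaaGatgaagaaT
ARPP19: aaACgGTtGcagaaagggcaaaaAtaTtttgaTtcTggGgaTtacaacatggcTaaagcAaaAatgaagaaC
The stretches are 79.2% identical, and ARPP19 shares none of its 5288 windows of 75 bases with another gene, while ENSA shares 6.71% with its pseudogene ENSAP2.

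All 6 genes of the inhibitor and MASTL group lay below 0 in the group comparison (median log2 difference -0.069), and none was called. SET, a PP2A inhibitor that is also a histone chaperone, stood at 533, 525 and 558 CPM in the mock, SCR#2 and SCR#3, and at 505, 524 and 532 CPM with the siRNAs. The groups overlapped, with a log2 difference of -0.050 (SE 0.075). ENSA stood at 141, 147 and 136 CPM in the controls and at 135, 126 and 140.5 CPM with the siRNAs (log2 difference -0.076, SE 0.086, groups overlapping). ARPP19 stood at 209, 218 and 230.3 CPM in the controls, and at 145, 212 and 231 CPM with siCIP2A#1, siCIP2A#2 and siCIP2A#3. The library of siCIP2A#1 alone was low, and the other siRNA libraries lay within or just above the controls. Over the 3 siRNAs ARPP19 gave -0.16 (SE 0.14), and 0.016 without siCIP2A#1. ANP32A, a second histone-binding inhibitor, ran from 183 to 225 CPM, MASTL from 40.8 to 49.1 CPM, and FAM122A, an inhibitor of B55 complexes also named PABIR1, from 17.4 to 23.0 CPM. Each of these 3 was lowest with siCIP2A#1.

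The assembly genes act on the catalytic subunit: PPP2R4 (PTPA) activates it, LCMT1 adds and PPME1 removes its methyl group, and IGBP1 and TIPRL bind it outside the trimer. None was called, 1 of 5 lay above 0 (PPME1, 0.0059) and LCMT1 lay lowest (-0.096). PPP2R4 ran from 236 to 300 CPM, highest in the mock and with siCIP2A#2. PP4 and PP6 are related enzymes with subunits of their own and act in DNA repair and mitosis, and 5 of their 7 genes lay above 0 (median 0.021). PPP4C, the PP4 catalytic subunit, stood at 128, 109 and 114 CPM in the mock, SCR#2 and SCR#3, and at 115, 122 and 120.4 CPM with the siRNAs. The siRNA values lay inside the range of the controls (log2 difference 0.021, SE 0.091, and -0.029 without SCR#2). PPP6R1 has 11% of its windows of 75 bases in common with AC010327.5, the largest share among the members, which makes its counts less certain. PPP2CA (8.26%) and SET (7.95%) came near it.

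Each siRNA was then compared with the 3 controls by itself. The residual spread came from the controls alone (2 residual degrees of freedom), and the lone library was assumed to vary as they do. edgeR moderates this spread by that of other genes, to a median of 8.54 total degrees of freedom. These 3 comparisons share their controls. No member was called by edgeR with siCIP2A#1, siCIP2A#2 or siCIP2A#3, where 0.118%, 0.0737% and 0.00737% of all tested genes were called. At an unadjusted p under 0.05 stood 2 members with siCIP2A#1 (against 9.95% of all genes), 4 with siCIP2A#2 (against 11.6%) and 1 with siCIP2A#3 (against 8.22%). DESeq2 called 1 member with siCIP2A#1 (0.553% of all genes) and none with siCIP2A#2 (0.45%) or siCIP2A#3 (0.214%).

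ARPP19 was the member that stood furthest from the controls with a single siRNA. With siCIP2A#1 it reached a log2 difference of -0.60 (SE 0.10, 95% interval -0.84 to -0.37), with an unadjusted p of 2.9e-04 and an adjusted p of 0.0845 by edgeR, which does not call it. DESeq2 called it (adjusted p = 0.00335), and adjusted p ran from 1.8e-08, without the mock, to 0.0993 over the alternatives. It was called by edgeR without SCR#2 (adjusted p = 0.0292) but not without SCR#3 (adjusted p = 0.0823). The log2 difference was -0.047 with siCIP2A#2 and 0.076 with siCIP2A#3. In the contrasts between siRNAs each side is 1 library, the residual spread again comes from the controls alone, and ARPP19 was singled out after its values were seen. The difference was -0.56 for siCIP2A#1 against siCIP2A#2 (SE 0.12, edgeR adjusted p = 0.170, with 2.4e-06 to 0.193 over the alternatives). Against siCIP2A#3 it was -0.68 (SE 0.12, edgeR adjusted p = 0.0623, with 3.4e-08 to 0.0766 over the alternatives), which DESeq2 called (adjusted p = 0.00613). The latter was called by edgeR without the mock (3.4e-08), SCR#2 (0.0179) or SCR#3 (0.0254), and the former without the mock (2.4e-06). All 6 inhibitor and MASTL genes lay below 0 with siCIP2A#1 (median -0.19) and 4 of 6 above 0 with siCIP2A#3. The siCIP2A#1 library also held the highest summed level of 6 fibroblast markers (18.2 CPM, against 6.51 to 7.78 CPM in the controls), of which 2 reached 1 CPM in any library, with COL1A1 at 14.4 CPM. COL3A1 and LUM did not exceed 0.194 CPM in any library. The summed endothelial markers (14.2 CPM, against 7.79 to 11.3 CPM in the controls) and epithelial markers (1149 CPM, against 719.9 to 949 CPM) were highest there too. The epithelial sum was nearly all KRT8 and KRT18. COL1A2, COL3A1, DCN, TEK, EPCAM, CDH1 and KRT19 were each higher in another library, so the sums rest on a few genes. The part of these sums in the ARPP19 value was not tested.

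PPP6C, the PP6 catalytic subunit, was the other member of note with siCIP2A#1. It stood at 95.9, 98.5 and 102.5 CPM in the mock, SCR#2 and SCR#3, and at 121, 97.0 and 99.5 CPM with siCIP2A#1, siCIP2A#2 and siCIP2A#3. The siCIP2A#1 library was high and the others together, at a log2 difference of 0.29 (SE 0.10, edgeR adjusted p = 0.370, with 0.00872 to 0.927 over the alternatives). With siCIP2A#2, PPP4R1, a PP4 regulatory subunit, stood at 199.6 CPM against 236 to 269.5 CPM in the other 5 libraries (log2 difference -0.30, SE 0.097, edgeR adjusted p = 0.348). PPP2R3A gave -0.39 with siCIP2A#2 (SE 0.13, edgeR adjusted p = 0.361), and -0.17 and -0.26 with siCIP2A#1 and siCIP2A#3. PPP2R2C gave -0.48 with siCIP2A#3 (SE 0.20, edgeR adjusted p = 0.604), -0.47 with siCIP2A#2 and -0.14 with siCIP2A#1. By direction, 9 of 36 members lay above 0 with siCIP2A#1 (25.0%), 14 with siCIP2A#2 (38.9%) and 20 with siCIP2A#3 (55.6%), against 48.8%, 49.4% and 48.0% of all tested genes. Between siRNAs, edgeR called no member, with 0.0147% of all genes called for siCIP2A#1 against siCIP2A#2, 0.509% for siCIP2A#1 against siCIP2A#3 and 0% for siCIP2A#2 against siCIP2A#3. DESeq2 called 0.656%, 1.06% and 0.708% of genes in these 3, and ARPP19 alone among the members.

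**Figure D4:**
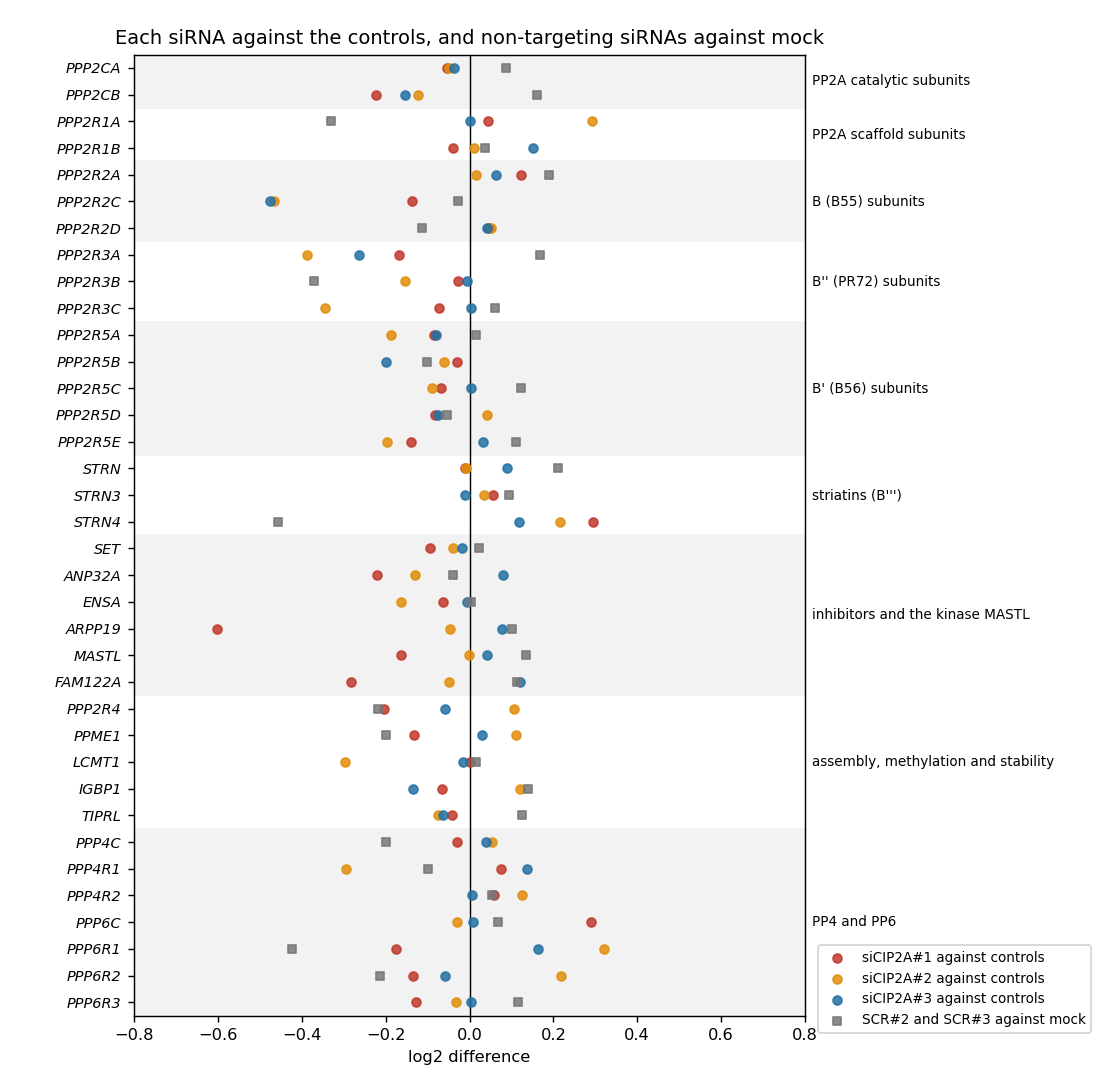
Log2 difference of each CIP2A siRNA from the 3 controls (circles) and of the 2 non-targeting siRNAs from the mock (squares), for each tested gene by role. ARPP19 with siCIP2A#1 (-0.60) is the point furthest from 0, and STRN4 (-0.46), PPP6R1 (-0.42) and PPP2R1A (-0.33) are low in the non-targeting libraries against the mock.

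The controls were compared with each other, since the mock stood apart. No member was called between the non-targeting siRNAs and the mock by edgeR (0% of all genes) or by DESeq2 (0.0221%), and 3 members had an unadjusted p under 0.05, against 6.31% of all genes. These were STRN4 (log2 difference -0.46, SE 0.14, edgeR adjusted p = 0.653), PPP6R1 (-0.42, SE 0.18, edgeR adjusted p = 0.781) and PPP2R1A (-0.33, SE 0.14, edgeR adjusted p = 0.781), the last named after its value was seen. PPP6R1, a PP6 regulatory subunit, stood at 122 CPM in the mock, 88.9 with SCR#2 and 93.0 with SCR#3, and at 89.6, 126 and 113 CPM with the siRNAs. The mock thus lay with siCIP2A#2 and siCIP2A#3, and the non-targeting libraries with siCIP2A#1. For STRN4 the step from the mock to the non-targeting siRNAs (-0.46) and that from the controls to the CIP2A siRNAs (0.21) were not tested against each other. The mock lay above both non-targeting libraries for 11 members (30.6%, against 40.5% of all tested genes) and below both for 16 (44.4%, against 40%). The mock and siCIP2A#2 were the 2 highest libraries for 8 members (22.2%, against 13.8% of all tested genes): PPP2R1A, PPP2R2D, PPP2R5D, PPP2R4, PPME1, PPP4C, PPP6R1 and PPP6R2.

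Set against SCR#2 and SCR#3 alone, the 3 siRNAs stood above both for 4 members (11.1%, against 12.7% of all tested genes) and below both for 8 (22.2%, against 11.5%). The 4 were PPP2R1A, PPP2R2D, STRN4 and PPP4C. The 8 were PPP2CA, PPP2CB, PPP2R2C, PPP2R3A, PPP2R5A, PPP2R5C, TIPRL and PPP6R3. Without the mock, the spread for single siRNAs comes from SCR#2 and SCR#3 alone, with 1 residual degree of freedom, and 13.8%, 22.4% and 9.65% of all tested genes were called with siCIP2A#1, siCIP2A#2 and siCIP2A#3. Leaving out SCR#2 or SCR#3 also leaves 1 residual degree of freedom, and the genes called for the 3 siRNAs in order then numbered 102, 40 and 33 (no SCR#2) or 85, 50 and 32 (no SCR#3). The cause of this gap was not tested. The member calls that follow, and their backgrounds, are again those without the mock. Among the members 5, 10 and 3 were then called, or 13.9%, 27.8% and 8.33% of the 36, near those backgrounds. The 5 were PPP2CB, STRN4, ANP32A, ARPP19 and PPP6C. The 10 were PPP2R1A, PPP2R3A, PPP2R3C, PPP2R5E, STRN4, PPP2R4, LCMT1, PPP4R1, PPP6R1 and PPP6R2. The 3 were PPP2R3A, STRN4 and PPP6R1, so that STRN4 was called with each siRNA. As examples from these lists, the log2 difference was 0.27 for PPP6C with siCIP2A#1 and -0.26 for PPP4R1 with siCIP2A#2. For PPP2R3A it was -0.44 with siCIP2A#2 and -0.32 with siCIP2A#3. Between siRNAs, 7, 5 and 4 members were called without the mock, where 16.7%, 18% and 22% of all genes were.

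**Figure D5:**
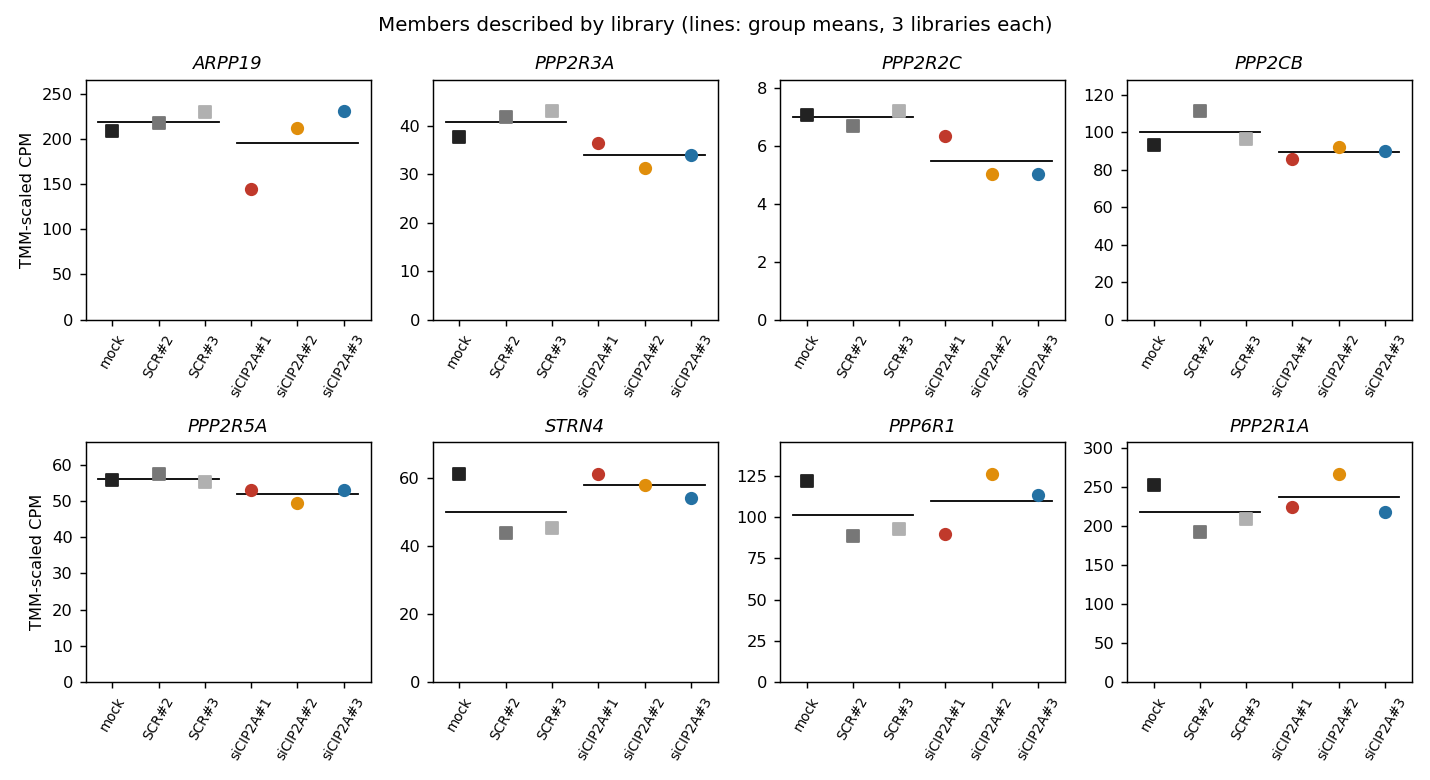
TMM-scaled CPM, from 0, of 8 genes in each library (squares, controls; circles, CIP2A siRNAs; lines, means of 3 libraries). ARPP19 is low with siCIP2A#1 alone, PPP2R3A, PPP2R2C, PPP2CB and PPP2R5A do not overlap between the groups, and the mock lies apart from SCR#2 and SCR#3 for STRN4, PPP6R1 and PPP2R1A.

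Other genes of the same pathways were read in 5 further lists, in which CIP2A was the only gene that edgeR called in any comparison. Of 14 tested STRIPAK partners, 8, 8 and 11 lay above 0 with siCIP2A#1, siCIP2A#2 and siCIP2A#3 (medians 0.064, 0.0053 and 0.0845). Between the non-targeting siRNAs and the mock 10 lay above 0 (median 0.097). In the group comparison, from which the differences below are taken, 12 lay above 0 and 2 below (median 0.052), none called. STK26, a germinal centre kinase, stood at 46.8, 52.5 and 54.2 CPM in the controls and at 38.9, 36.0 and 51.5 CPM with the siRNAs, lower with siCIP2A#1 and siCIP2A#2 (log2 difference -0.28, SE 0.14). TNIK, a kinase of the same class, stood at 92.7 to 98.1 CPM in the controls and at 114, 98.6 and 98.9 CPM with the siRNAs (0.13, SE 0.093). Of 9 other inhibitors and relatives beside CIP2A, 7 lay below 0 (median -0.067). FAM122B, a relative of FAM122A, stood at 104, 109 and 109 CPM in the controls and at 97.2, 99.98 and 63.1 CPM with the siRNAs, lowest with siCIP2A#3 (log2 difference -0.31, SE 0.15, edgeR unadjusted p = 0.0586). Of 6 further PP4 and PP6 subunits 3 lay above 0, with ANKRD44 at 0.17 (SE 0.17) and ANKRD52 at 0.080 (SE 0.091). Of 14 Integrator genes, whose complex carries PP2A to RNA polymerase, 8 lay above 0, with INTS8 at -0.16 (SE 0.099) and INTS4 at 0.14 (SE 0.11). Of 16 other phosphatase genes of this superfamily 9 lay above 0, with PPP1CC at -0.095 (SE 0.083) and PPP1R15B at 0.12 (SE 0.11). All tested genes were split 49.6% above 0 in the group comparison. MOB4, a STRIPAK subunit, and NOSTRIN each had at most 0.0646 CPM in any library, below the floor. Treatment of reads matching several genes is not given, so these counts do not show that the transcripts were absent.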

How the data were processed

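Values deposited by the authors are raw counts of reads per gene in 6 libraries, per the file headers. The submitters' processing notes name hg38, Subread 1.5.1, STAR 2.5.4b and bcl2fastq 2.17, while annotation, strand setting and treatment of reads with several matches are not given in the sources used. Symbols altered by a spreadsheet (51) were restored through the Entrez identifier in 50 rows. Genes were filtered with filterByExpr (minimum count 10), scaled by TMM and tested with edgeR 4.0.16 in R 4.3.3 (robust glmQLFit, glmQLFTest, Benjamini-Hochberg adjustment over all tested genes, adjusted p under 0.05). Groups were fitted with 4 residual degrees of freedom, single siRNAs with 2 and non-targeting siRNAs against mock with 3. Moderation by the spread of other genes gave medians of 11.9, 8.54 and 9.53 total degrees of freedom. Each edgeR SE is the absolute log2 difference over the square root of F. The intervals use the t quantile at the total degrees of freedom. DESeq2 1.42.0 and limma 3.58.1, RLE and upper quartile factors, other filters, a replicate block, the mock as a level of its own and each library left out were alternatives. The members and lists were chosen with earlier results of these data known. Genes described in full were those with the smallest p in each comparison, those whose groups do not overlap, and PPP2CA, PPP2CB, PPP2R1A, PPP2R1B, PPP2R2A, SET, ENSA, ARPP19 and PPP4C. Coordinates are those of RefSeq genes on GRCh38.p14 (37 of 37 matched), lengths and sequences from GENCODE 29. In simulated counts for the group comparison (13562 genes), edgeR recovered 62% of 100 genes changed 1.5-fold and 94% of 100 changed 2-fold, with 9 false calls. These changes were set alike in all 3 siRNA libraries, whereas CIP2A, at a log2 difference of -1.90 and unequal between siRNAs, was not called in the real comparison.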

Additional observations from a re-analysis of the deposited data

How the results depend on the processing

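Across the group comparison, edgeR called 0 genes, against 3 by DESeq2, 3 without a filter and 1 with the replicate number as a block, while no alternative called a member. CIP2A was called under the block (log2 difference -2.03, edgeR adjusted p = 0.0345) and without siCIP2A#2 (-2.50, edgeR adjusted p = 1.2e-05), with -2.50 to -1.63 over left-out libraries. Deviations from the group means correlated at -0.117, -0.128 and 0.0076 between same-numbered libraries, and at 0.163 between the mock and siCIP2A#2, numbered differently. Each library had its own agent, so these values cannot show whether the numbers pair libraries. The block changed no other call. The members' median became -0.0595 with the mock as a level of its own, and ran from -0.0598 to -0.0119 over left-out libraries, the latter without siCIP2A#1; 0 to 1 genes were called. Over left-out libraries, run for the 15 members whose group values are described in full, the log2 differences that changed sign were those of ARPP19 (-0.30 to 0.016, the latter without siCIP2A#1), PPP4C (-0.029 without SCR#2, to 0.090) and PPP2R1B (-0.016 without siCIP2A#3, to 0.083), none called either way. The log2 ratio of PPP2R1A to PPP2R1B also changed sign (-0.025 without siCIP2A#2, to 0.20 without the mock). The cause was not tested.

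For single siRNAs, DESeq2 called 75, 61 and 29 genes with siCIP2A#1, siCIP2A#2 and siCIP2A#3 and no filter gave 169, 109 and 44. Both called 1 member, ARPP19, with siCIP2A#1. Over left-out libraries the genes called ran from 16 to 1896, 10 to 3088 and 1 to 1330, and members from 0 to 5, 0 to 10 and 0 to 3, each highest without the mock. The members' median with siCIP2A#1 was -0.044 with upper quartile factors and ran from -0.089 to -0.067 over left-out libraries, with siCIP2A#2 from -0.049 to -0.013 and with siCIP2A#3 from -0.0061 to 0.0145. Between the non-targeting siRNAs and the mock, DESeq2 called 3 genes and no filter 5, and the median was 0.054 with upper quartile factors and 0.0297 to 0.0432 over left-out libraries.

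Between siCIP2A#1 and siCIP2A#2, DESeq2 called 89 genes, limma-voom 1 and no filter 156 with 1 member, and the median was 0.012 with upper quartile factors. Between siCIP2A#1 and siCIP2A#3, DESeq2 called 144 genes with 1 member and no filter 305 with 1 member, and the median was -0.038 with upper quartile factors and -0.079 without a filter. Between siCIP2A#2 and siCIP2A#3, DESeq2 called 96 genes and no filter 211. Over left-out libraries these 3 comparisons called 2 to 2302, 71 to 2477 and 0 to 3026 genes, with 0 to 7, 0 to 5 and 0 to 4 members. The union of exons changed the rank per length of 29 members. Depth limits the rarest member: PPP2R2B, below the floor of 3 counts in every library, could not be assessed.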
